A study of Homo sapiens with 12 samples.

Results

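The DNA replication genes described here are 44 listed genes whose products license origins, unwind DNA, copy both strands and protect or regulate the replication fork. They were taken by symbol from a table of 46639 gene symbols, summing the 113 transcript rows that carry their names, and all 44 were found. RNA was sequenced from MOLM-13, a human acute myeloid leukemia (AML) cell line with an MLL-AF9 fusion. The 4 groups of 3 libraries each were untreated cells, cells given decitabine at 100 nM (DAC, a nucleoside analogue that blocks DNA methyltransferases), cells given all-trans retinoic acid at 1 µM (ATRA, the ligand of RAR nuclear receptors) and cells given both (DAC+ATRA). All groups were described as grown in medium with GM-CSF, a myeloid growth factor, which the study's supplementary methods do not name. Those methods give RPMI medium with serum and antibiotics for the cell lines. The labels call the libraries technical triplicates of this single line, so p-values measure the spread within 1 experiment. The labels put untreated cells at 96 h and treated cells at 72 h, whereas the series' design names 72 h for the harvest; if the sample labels hold, culture time and treatment cannot be told apart in the comparisons with untreated cells. The study's methods give DAC in daily pulses and add ATRA with the last pulse. By those methods, exposure to ATRA was shorter than the 72 h of the labels. No vehicle control was among the libraries.

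DNA replication is prepared in G1 phase, when the origin recognition complex, CDC6 and CDT1 load the MCM helicase onto DNA. In S phase, CDC45 and the GINS complex join MCM to form the active helicase, primase with polymerase alpha starts each strand, and polymerases epsilon and delta extend it with the PCNA clamp. Transcription of many of these genes is known to depend on E2F factors and so to follow the entry of cells into S phase.

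E2F sites are the promoter feature these genes are best known for, so the promoter stretches of 4 genes that fell with ATRA are shown. They are the called genes with the largest changes that had a single promoter window, an E2F motif before the start and no annotated exon in the stretch. The sequences come from RefSeq promoters on GRCh38.p14 and run 5′ to 3′ along the gene, with the motif in capitals. CDT1 lies at chr16:88803709-88803788 (plus strand), E2F1 at chr20:33686386-33686465 (minus), GINS2 at chr16:85688955-85689034 (minus) and MCM6 at chr2:135876502-135876615 (minus). The MCM6 stretch covers bases -172 to -59 from the annotated start and the others bases -80 to -1.
CDT1: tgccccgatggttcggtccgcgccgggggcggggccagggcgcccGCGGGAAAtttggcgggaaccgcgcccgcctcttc
E2F1: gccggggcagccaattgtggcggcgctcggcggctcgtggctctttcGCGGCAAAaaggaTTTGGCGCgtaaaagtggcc
GINS2: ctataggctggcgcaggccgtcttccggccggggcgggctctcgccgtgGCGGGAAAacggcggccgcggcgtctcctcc
MCM6: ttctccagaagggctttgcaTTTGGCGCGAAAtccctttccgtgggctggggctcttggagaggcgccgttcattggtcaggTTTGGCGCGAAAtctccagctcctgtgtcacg

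The motif searched was TTT, then 2 letters that are each C or G, then CGC, on both strands. In MCM6, 4 matches form 2 overlapping pairs, 1 match on each strand of a pair. Windows of 300 bases (250 before and 50 after the start) were given for 38 of the 44 genes, and not for MCM4, MCM5, GINS4, POLD3, RPA2 and RPA3. At least 1 E2F match was present in 20 of the 38 genes (52.6%), compared with 595 of 8542 tested genes that had a window (6.97%). Counted by window, 20 of 46 windows of the replication genes (43.5%) held a match, and 1164 of 35116 windows of all genes (3.31%) did. The CCAAT box, a site of NF-Y, was found in 24 of the 38 genes (63.2%) and in 43.4% of tested genes and 34.6% of all windows. TTTGAA or TTCGAA, the CHR motif known from mitotic gene promoters, was found in MCM6 alone among the replication genes (2.63%) and in 15.5% of tested genes and 16.4% of all windows. The motifs do not contain each other. These matches describe letters in a window and not sites of binding.

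**Figure D1:**
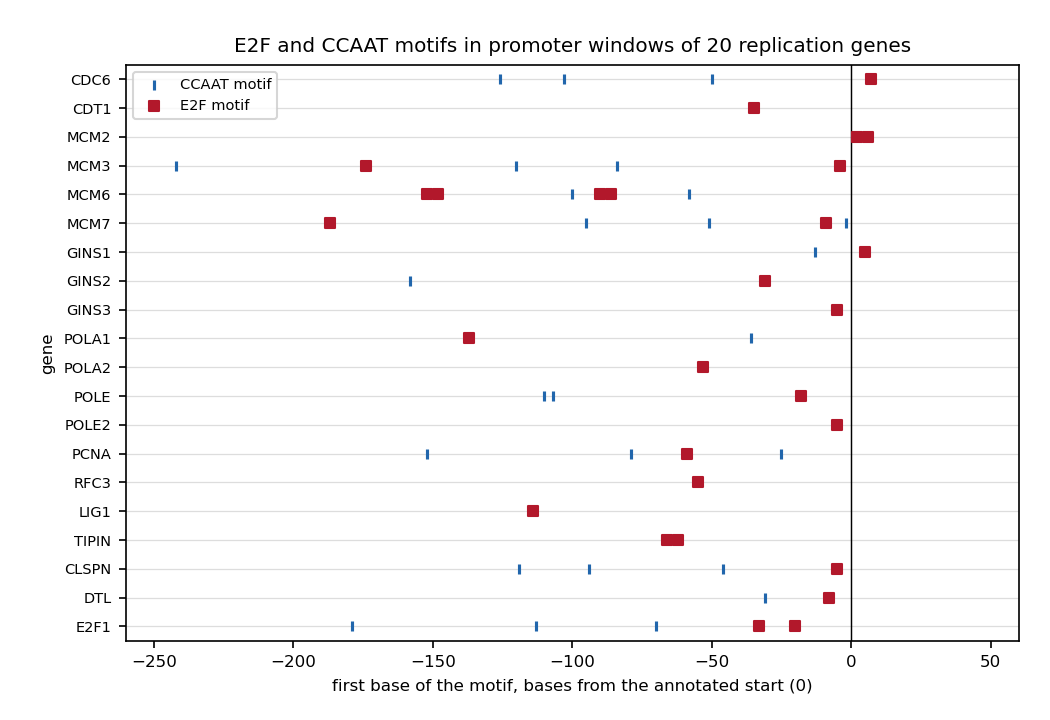
Positions of E2F motifs (red squares) and CCAAT motifs (blue ticks) in the promoter windows of the 20 replication genes that held an E2F motif, each row 1 gene and the x axis the first base of the motif in bases from the annotated start (0). All 20 genes had an E2F motif, and 24 of the 38 replication genes with a window held a CCAAT motif; windows without an E2F motif are not drawn.

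Values are normalised counts, which are reads divided by 1 size factor per library. Recovered depth was 8.95 to 11.9 M reads (M stands for mega) in untreated, 4.67 to 6.95 M in DAC, 8.36 to 10.7 M in ATRA and 5.61 to 7.16 M in DAC+ATRA libraries, so both groups with DAC were shallower. Reads that fit several transcripts of a gene appear to have been left out, which makes each level a lower limit and levels of different genes not comparable. Of 10 myeloid markers, 8 had at least 10 normalised counts in every library, with PTPRC and ITGAM lower in some. The summed level of these 10 ran from 72380 to 81540 in untreated and 187700 to 229600 in DAC libraries. It ran from 21960 to 27040 in ATRA and 68430 to 72710 in DAC+ATRA libraries. LYZ, its largest part in untreated and DAC libraries, had means of 41630 untreated, 153300 with DAC and 6819 with ATRA. The markers did not move together. With ATRA, the means of CD33, SPI1, CSF1R and ITGAM were higher and the others lower. With DAC, the means of PTPRC, CEBPA, FLT3 and CSF1R were lower and the others higher. The marker lists of T cells (4), B cells (4) and epithelial cells (3) each summed to at most 43.9 in any library, and CD2, TRBC2, MS4A1, PAX5 and CDH1 were at 0 in all. The 3 fibroblast markers summed to 4.87 to 10.7 in untreated, 17.8 to 24.0 in DAC, 64.5 to 86.3 in ATRA and 39.2 to 58.2 in DAC+ATRA libraries. This sum was all COL1A1, since COL1A2 and DCN were at 0 in every library.

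The replication genes were lower with ATRA than in any other group and highest with DAC, with DAC+ATRA between ATRA and untreated. They held 0.250% to 0.273% of the reads of untreated libraries, 0.304% to 0.343% with DAC, 0.109% to 0.167% with ATRA and 0.218% to 0.227% with DAC+ATRA. No ATRA library reached the range of another group. The mean log2 level over the 43 tested genes, relative to untreated, was 0.27, 0.17 and 0.18 in the DAC libraries, -0.55, -0.72 and -1.16 in the ATRA libraries and -0.20, -0.31 and -0.33 in the DAC+ATRA libraries. The mean over all 10642 tested genes stayed between -0.03 and 0.05 in the same libraries. In 35 of the 43 genes the mean was lowest in ATRA, in 33 it was highest in DAC, and in 31 both held. These orderings were not counted over all tested genes. In these bulk libraries, fewer cells that express the genes and less of their RNA per cell cannot be told apart.

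**Figure D2:**
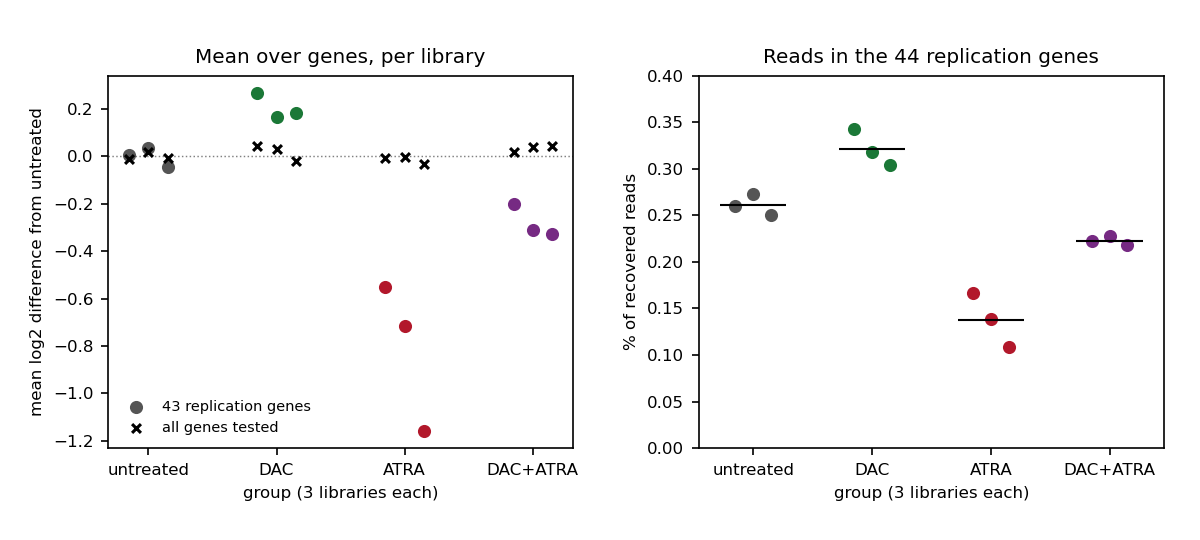
Left, mean log2 difference from untreated per library over the 43 tested replication genes (circles, coloured by group) and over all tested genes (black crosses). Right, percent of recovered reads in the 44 replication genes per library, with the group mean as a line; ATRA libraries lie at 0.109% to 0.167% and untreated libraries at 0.250% to 0.273%.

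**Figure D3:**
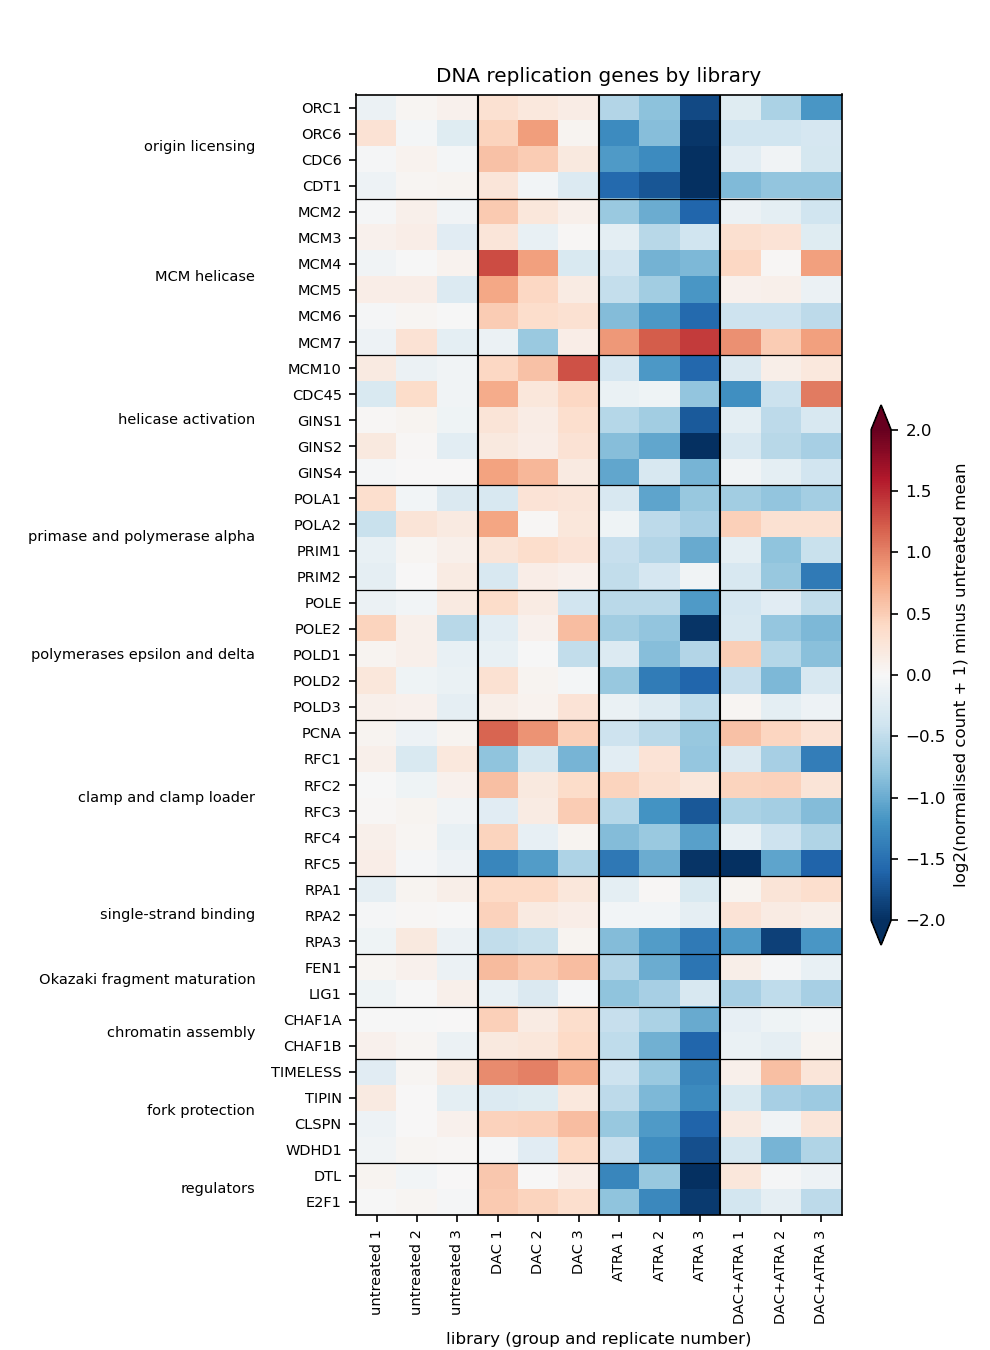
Colour map of log2(normalised count + 1) minus the untreated mean for 43 replication genes (rows, grouped by role) in 12 libraries (columns); red is above and blue below untreated. Most rows are blue in the ATRA libraries and deepest in ATRA replicate 3, whereas MCM7 is red there.

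Gene by gene, a change was called at an adjusted p under 0.01 (limma, Benjamini-Hochberg over all 10642 tested protein-coding genes). GINS3, at 0 to 11.2 normalised counts, did not pass the filter on low values and was not tested. ATRA against untreated gave the most calls, with 25 of the 43 tested replication genes lower and 1 higher, where 14.0% of all tested genes were called lower and 12.1% higher. Their median log2 change was -0.90, against -0.04 over all genes, and 41 of 43 values lay below 0, beside 5629 of all 10642. ATRA and untreated libraries had similar depth. DAC against untreated gave 1 call, PCNA, higher (4.29% of all genes were called higher and 3.67% lower). For the 43 genes the median was 0.25 against 0.00 over all genes, and 34 values lay above 0, beside 5252 of all 10642. The 1 call of 43 is no larger a share than the background. This comparison sets shallower libraries against deeper ones, and the part of depth was not tested. At an unadjusted p under 0.05, 15 of the 43 genes passed with DAC and 34 with ATRA. Of all 10642 tested genes, 3059 passed with DAC and 4736 with ATRA.

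For DAC+ATRA against untreated, 5 genes were called lower and 0 higher, where 14.4% of all genes were lower and 14.5% higher, so the share of replication genes called in this comparison did not exceed the background. Their median was -0.30 (0.00 over all genes). At an unadjusted p under 0.05, 18 of the 43 passed, beside 5085 of all 10642 tested genes. This share did not exceed the background either. Against DAC alone, DAC+ATRA gave 7 genes lower and 1 higher (background 9.74% lower, 9.04% higher), with a median of -0.59 against 0.00. Against ATRA alone, DAC+ATRA gave 13 genes higher and 0 lower (background 6.47% higher, 5.46% lower), with a median of 0.52 against 0.03. The interaction, which asks whether the DAC effect with ATRA differs from the DAC effect without it, called 1 gene, CDT1 (background 0.724% higher, 0.874% lower). Of the 25 genes lower with ATRA, 21 were not called for DAC+ATRA against untreated and 12 were called higher with DAC+ATRA than with ATRA. These counts were not taken over all 1488 tested genes called lower with ATRA, so they have no background and show nothing particular to replication genes. Comparisons that share a group are not independent of each other, and a gene that was not called was not thereby shown to be equal.

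**Figure D4:**
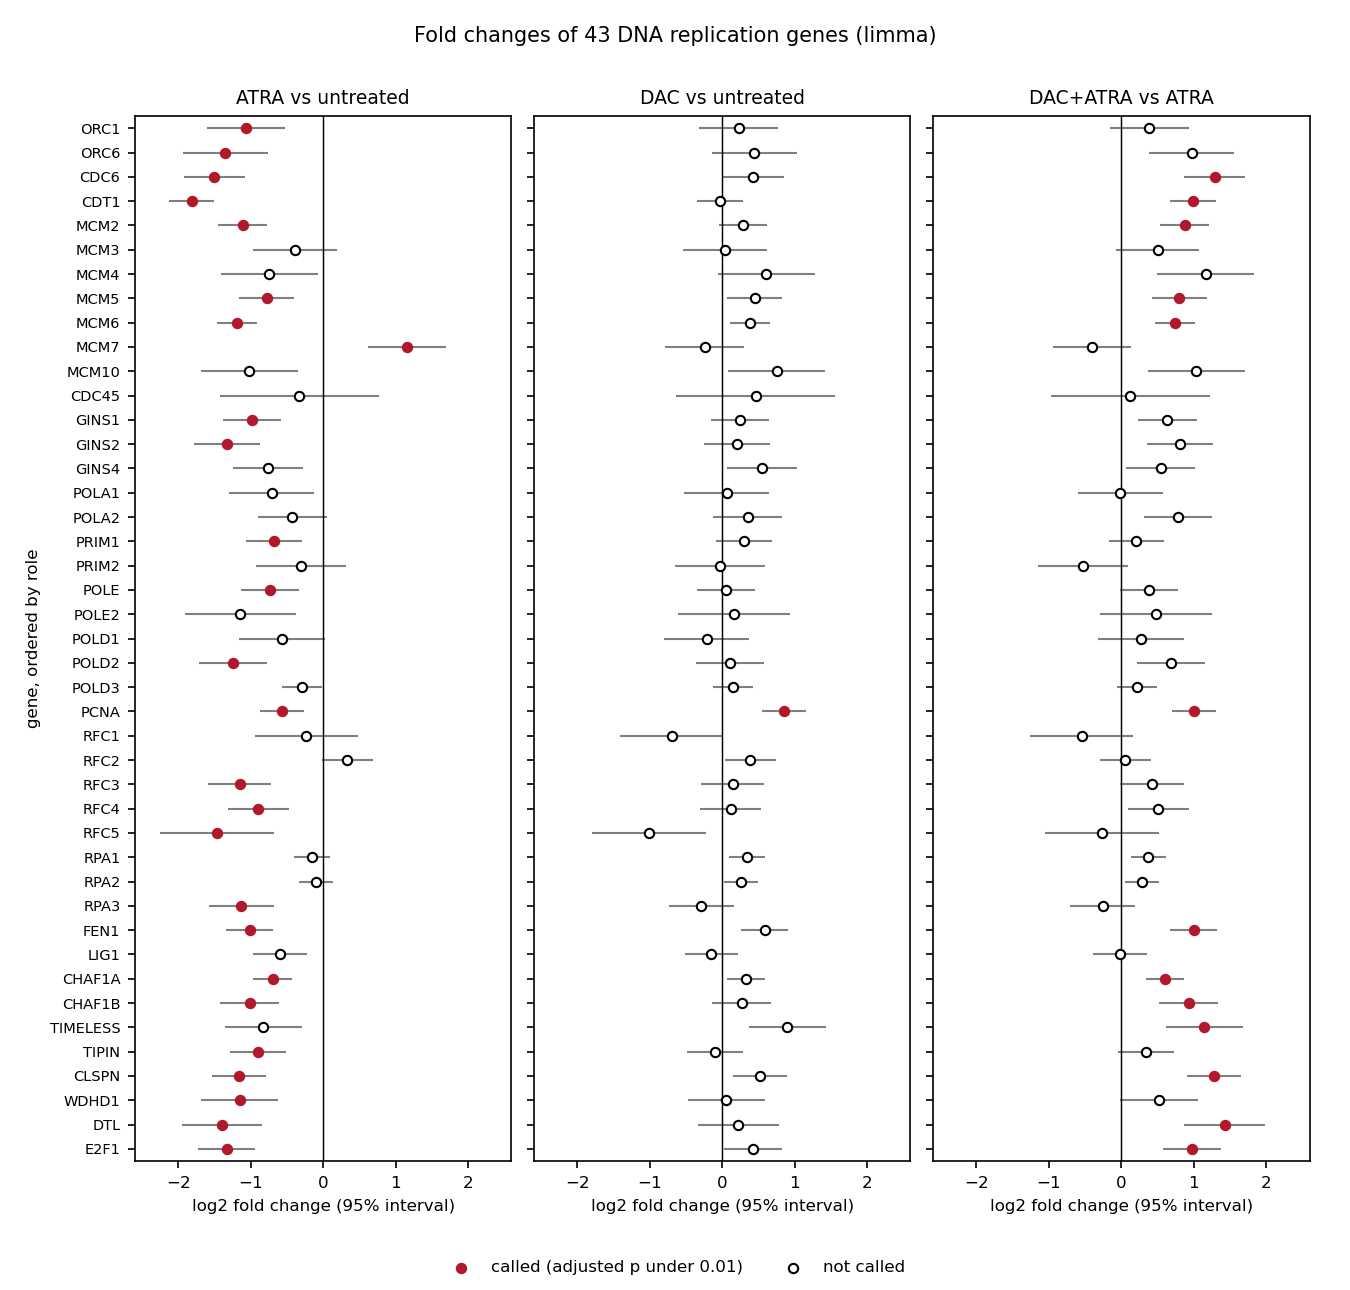
Log2 fold change with its 95% interval (limma) for 43 replication genes, ordered by role, for ATRA against untreated, DAC against untreated and DAC+ATRA against ATRA; red points were called at an adjusted p under 0.01. Of the points, 25 are called below 0 and 1 above 0 with ATRA, 1 is called above 0 with DAC, and 13 are called above 0 for DAC+ATRA against ATRA.

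All 4 tested licensing genes, ORC1 and ORC6 of the origin recognition complex and the loaders CDC6 and CDT1, were called lower with ATRA, with log2 changes from -1.82 to -1.07. CDT1, which brings MCM to the origin, stood at 981, 1086 and 1101 normalised counts in the untreated libraries, 1249, 1013 and 869 with DAC, 358, 321 and 232 with ATRA, and 574, 607 and 608 with DAC+ATRA. The ATRA libraries lay below all others, the DAC+ATRA libraries lay between them and untreated, and DAC overlapped with untreated. Its mean fell from 1056 ± 65.6 to 304 ± 65.1 with ATRA (SD, n = 3), 3.52-fold lower (log2 -1.82 ± 0.15 SE, limma adjusted p = 1.15e-08). CDT1 was called in 5 of the 6 comparisons, more than any other member. It was lower with DAC+ATRA than untreated (log2 -0.82 ± 0.15, limma adjusted p = 0.000218) and than DAC (log2 -0.79, limma adjusted p = 0.000483), and higher than with ATRA (log2 0.99, limma adjusted p = 9.19e-05). The log2 change with DAC alone was -0.03 ± 0.15, so DAC+ATRA lay 1.02 ± 0.21 above the sum of the single changes (limma adjusted p = 0.00814 for the interaction). Without ATRA replicate 3 the interaction was 0.84 and no longer called, as also without any untreated or DAC+ATRA library, DAC replicate 2 or ATRA replicate 2.

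CDC6, an ATPase that acts with the origin recognition complex, had 308, 330 and 305 normalised counts untreated, 471, 449 and 360 with DAC, 143, 131 and 71.1 with ATRA, and 270, 299 and 245 with DAC+ATRA. Every DAC library was above and every ATRA library below every untreated one, and the DAC+ATRA libraries were below all untreated ones. The gene was 2.84-fold lower with ATRA (log2 -1.50 ± 0.20, limma adjusted p = 6.27e-06), and DAC+ATRA exceeded ATRA 2.44-fold (log2 1.29 ± 0.20, limma adjusted p = 0.000117). With DAC the change was 0.43 ± 0.20 and missed the threshold (limma adjusted p = 0.161). ORC6 went from a mean of 61.8 ± 11.8 to 24.5 ± 9.23 and ORC1 from 163 ± 12 to 82.2 ± 32.4 with ATRA. The call of ORC1 was lost without ATRA replicate 3 (log2 -0.70), and also without untreated replicate 2 or 3.

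The MCM genes encode the ring-shaped helicase, and here they did not move as one. MCM2, MCM5 and MCM6 fell with ATRA and were higher with DAC+ATRA than with ATRA. MCM6 had 2257, 2363 and 2296 normalised counts untreated, 3272, 2936 and 2855 with DAC, 1260, 1040 and 783 with ATRA, and 1734, 1738 and 1606 with DAC+ATRA, so that the 4 groups did not overlap. It was 2.28-fold lower with ATRA (log2 -1.19 ± 0.13, limma adjusted p = 5.82e-07), 1.78-fold lower with DAC+ATRA than with DAC (log2 -0.83, limma adjusted p = 6.68e-05) and 1.68-fold higher with DAC+ATRA than with ATRA (log2 0.75, limma adjusted p = 0.000405). Its decrease with DAC+ATRA against untreated was just outside the threshold (log2 -0.45, limma adjusted p = 0.0104) and was called by DESeq2 and edgeR. MCM2 fell from 3304 ± 195 to 1571 ± 439 with ATRA (log2 -1.11 ± 0.16) and stood at 2812 ± 266 with DAC+ATRA. MCM5, the member with the smallest of these 3 changes, was at 364 ± 55.9 untreated and 213 ± 50.1 with ATRA (log2 -0.78 ± 0.18). Its call was lost without ATRA replicate 3 (log2 -0.59) or untreated replicate 1 or 2, and its difference between DAC+ATRA and ATRA (log2 0.80 ± 0.18) was not called without ATRA replicate 2 or 3 or DAC+ATRA replicate 1 or 2.

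MCM7 went the other way, with 35.0, 46.3 and 32.6 normalised counts untreated, 34.3, 22.0 and 41.4 with DAC, 69.0, 87.8 and 100.3 with ATRA, and 71.4, 54.0 and 67.4 with DAC+ATRA. Both groups with ATRA were above both groups without it. The increase was 2.22-fold with ATRA (log2 1.15 ± 0.26, limma adjusted p = 0.0015) and 1.99-fold for DAC+ATRA against DAC (log2 1.00 ± 0.26, limma adjusted p = 0.00652). The first call was lost without ATRA replicate 3 (log2 1.03). The second was lost without DAC replicate 2 (log2 0.74), ATRA replicate 2 or DAC+ATRA replicate 1 or 3. It was also lost in an edgeR fit, without the low-value filter, with only the compared groups and with a replicate block. In all, it was called in 17 of 25 alternative fits. Of this gene's summed value, 93.7% came from 1 transcript that is not in GENCODE release 44, and its main listed protein-coding transcript held 6.16%, so these values follow that transcript and not the whole gene. MCM3 (28.1 ± 3.73 untreated, 21.2 ± 2.81 with ATRA) and MCM4 (55.5 ± 2.74 untreated, 33.2 ± 7.72 with ATRA) were not called in any comparison. All 337 reads of MCM3 fell on 1 of its 4 transcript rows, and 84.5% of the MCM4 value on 1 of 6. These low values may therefore not stand for the whole genes either. MCM4 spread widely with DAC, at 139, 98.8 and 44.6.

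Among the genes that activate the helicase, GINS1 and GINS2 of the GINS complex were called lower with ATRA. GINS2, whose promoter stretch is shown above, had a mean of 673 ± 92.0 untreated, 772 ± 42.2 with DAC, 284 ± 112 with ATRA and 470 ± 59.0 with DAC+ATRA. The decrease with ATRA was 2.51-fold (log2 -1.32 ± 0.22, limma adjusted p = 7.19e-05), and no ATRA library overlapped with another group. GINS1 was 1.98-fold lower (log2 -0.98 ± 0.19). GINS4 (log2 -0.76 ± 0.23, limma adjusted p = 0.0127) and MCM10, which joins the helicase on activation (log2 -1.02 ± 0.32, limma adjusted p = 0.0173), missed the threshold with ATRA. CDC45 had only 2.80 to 17.4 normalised counts in any library, and its change with ATRA was -0.33 ± 0.52, too imprecise to show a change of the size seen in GINS1.

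The primase and polymerase alpha complex lays down the primers. PRIM1, the catalytic primase subunit, was the only one of its 4 genes called with ATRA, falling from 162 ± 14.5 to 101 ± 19.6 (log2 -0.68 ± 0.18, limma adjusted p = 0.00617), a call lost without ATRA replicate 2 or 3 (log2 -0.52 without the latter) or untreated replicate 2 or 3. That call was also lost with a replicate block. PRIM1 was also lower with DAC+ATRA than with DAC (117 ± 24.6 against 198 ± 7.74, log2 -0.77 ± 0.18), except without DAC replicate 2 or DAC+ATRA replicate 2 or 3, where the call was lost (log2 -0.61 at its smallest). POLA1, POLA2 and PRIM2 had ATRA changes of -0.71, -0.42 and -0.30 and were called in no comparison.

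For the replicative polymerases, POLE, the catalytic subunit of polymerase epsilon, and POLD2, an accessory subunit of polymerase delta, fell with ATRA. POLD2 had 149, 119 and 115 normalised counts untreated and 74.4, 47.6 and 41.8 with ATRA, without overlap (log2 -1.25 ± 0.22, limma adjusted p = 0.00018). POLE went from 290 ± 33.4 to 176 ± 38.6 (log2 -0.74 ± 0.19, limma adjusted p = 0.00473), and without ATRA replicate 3 its change was -0.54 and not called, as also without untreated replicate 2 or 3. POLE2 (log2 -1.14 ± 0.37), POLD1 (-0.57) and POLD3 (-0.30) were not called. None of the 5 polymerase genes was called in another comparison.

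PCNA, the sliding clamp, was the 1 member called higher with DAC. It had 796, 719 and 796 normalised counts untreated, 1729, 1429 and 1076 with DAC, 578, 529 and 456 with ATRA, and 1151, 1041 and 942 with DAC+ATRA. All DAC and all DAC+ATRA libraries were above the untreated ones and all ATRA libraries below, and DAC and DAC+ATRA overlapped. PCNA was 1.80-fold higher with DAC (log2 0.85 ± 0.15, limma adjusted p = 0.000461), 1.48-fold lower with ATRA (log2 -0.57 ± 0.15, limma adjusted p = 0.00436) and 2.01-fold higher with DAC+ATRA than with ATRA (log2 1.00, limma adjusted p = 5.87e-05). The DAC call was lost when only DAC and untreated libraries entered the fit, and the ATRA call without ATRA replicate 2 or 3 (log2 -0.48 without the latter) or untreated replicate 1 or 3. For DAC+ATRA against untreated the change was 0.44 ± 0.15 (limma adjusted p = 0.0222).

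**Figure D5:**
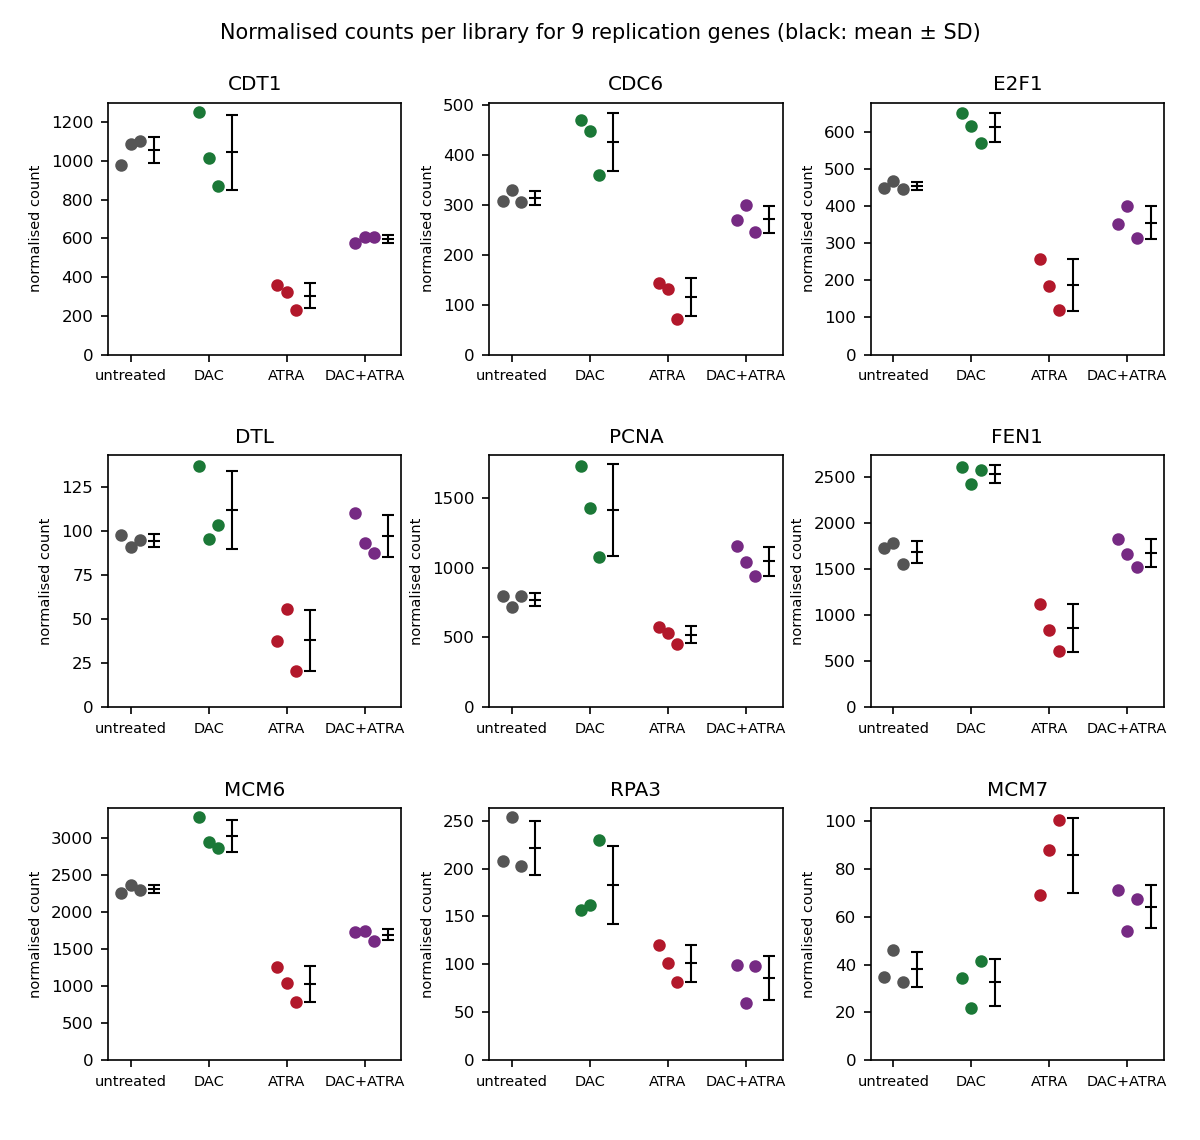
Normalised counts per library for 9 replication genes, with the x axis the group and the black marks the mean ± SD (n = 3). CDT1, CDC6, E2F1, FEN1 and MCM6 are lowest in the ATRA libraries, PCNA is above untreated with DAC and DAC+ATRA, RPA3 is low with both ATRA and DAC+ATRA, and MCM7 is high in both groups with ATRA.

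The clamp loader, made of 5 RFC subunits that place PCNA on DNA, was mixed. RFC3, RFC4 and RFC5 fell with ATRA, while RFC1 (log2 -0.23 ± 0.34) and RFC2 (0.33 ± 0.17) were not called. RFC3 had 709, 723 and 665 normalised counts untreated, 597, 779 and 988 with DAC, 470, 304 and 216 with ATRA, and 448, 434 and 382 with DAC+ATRA. Both groups with ATRA lay below both groups without it. RFC3 was lower with ATRA (log2 -1.15 ± 0.21, limma adjusted p = 0.000208), with DAC+ATRA than untreated (log2 -0.73, limma adjusted p = 0.00869) and with DAC+ATRA than DAC (log2 -0.87, limma adjusted p = 0.00348). The second of these was called in 14 of 25 alternative fits and lost without any 1 untreated or DAC+ATRA library, DAC replicate 2 or ATRA replicate 2. It was also lost without the low-value filter, with a pseudocount of 0.1 and with a replicate block. The last was lost without DAC replicate 2 or 3 or DAC+ATRA replicate 2 or 3 (log2 -0.70 at its smallest).

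RFC5 had 49.8, 44.7 and 42.0 normalised counts untreated, 17.8, 20.4 and 29.4 with DAC, 16.1, 22.3 and 10.9 with ATRA, and 7.0, 21.4 and 14.3 with DAC+ATRA. Each treated library was below each untreated library. With only 339 reads over all libraries, RFC5 was 2.76-fold lower with ATRA (log2 -1.47 ± 0.38, limma adjusted p = 0.00445) and 3.31-fold lower with DAC+ATRA (log2 -1.73 ± 0.38, limma adjusted p = 0.00108). The ATRA call was lost without ATRA replicate 1 or 3 or any 1 untreated library, and also without the low-value filter. With DAC the change of -1.01 ± 0.38 was not called (limma adjusted p = 0.0778). RFC4 fell from 106 ± 9.79 to 56.4 ± 6.64 with ATRA (log2 -0.90 ± 0.20), a call lost without ATRA replicate 3 (log2 -0.81).

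The subunits of RPA, which coats single-stranded DNA, also parted. RPA1 had 1154, 1354 and 1416 normalised counts untreated and 1143, 1330 and 1055 with ATRA, which overlapped, and its log2 change was -0.15 ± 0.12. RPA2 changed by -0.10 ± 0.11 with ATRA. The smallest subunit gene, RPA3, had 208, 253 and 203 normalised counts untreated, 156, 162 and 230 with DAC, 120, 101 and 81.9 with ATRA, and 99.4, 59.7 and 98.0 with DAC+ATRA. All 6 libraries that received ATRA were below all 6 that did not. RPA3 was 2.19-fold lower with ATRA (log2 -1.13 ± 0.21, limma adjusted p = 0.000334), 2.62-fold lower with DAC+ATRA than untreated (log2 -1.39 ± 0.21, limma adjusted p = 3.89e-05) and 2.14-fold lower with DAC+ATRA than DAC (log2 -1.10, limma adjusted p = 0.000656). With DAC+ATRA it was not above ATRA, at a difference of -0.26.

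For Okazaki fragment maturation, FEN1, the flap endonuclease, had 1726, 1782 and 1554 normalised counts untreated, 2607, 2421 and 2572 with DAC, 1124, 843 and 610 with ATRA, and 1831, 1664 and 1528 with DAC+ATRA. DAC libraries were above and ATRA libraries below untreated, and DAC+ATRA overlapped with untreated. FEN1 was 2.02-fold lower with ATRA (log2 -1.01 ± 0.15, limma adjusted p = 3.11e-05), and DAC+ATRA was 2.00-fold above ATRA (log2 1.00, limma adjusted p = 0.000109) and 1.52-fold below DAC (log2 -0.60, limma adjusted p = 0.00593). The last call was lost without DAC replicate 1 or 2 or DAC+ATRA replicate 2 or 3 (log2 -0.54 at its smallest), and also without the low-value filter. Its DAC change of 0.59 ± 0.15 had a limma adjusted p of 0.0135 and was called by DESeq2 and edgeR. LIG1, the ligase that seals the fragments, was at 127 ± 8.96 untreated, 114 ± 10.8 with DAC, 84.4 ± 14.9 with ATRA and 82.8 ± 5.32 with DAC+ATRA. It was called for DAC+ATRA (log2 -0.61 ± 0.18, limma adjusted p = 0.00882), a call lost without any 1 untreated or DAC+ATRA library or ATRA replicate 2, and not for ATRA (log2 -0.60 ± 0.18, limma adjusted p = 0.0114). The DAC+ATRA call was also lost without the low-value filter and with a replicate block. The value of LIG1 came almost entirely from transcripts that are not in GENCODE release 44.

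Both subunits of chromatin assembly factor 1, which places histones on new DNA, fell with ATRA and were higher with DAC+ATRA than with ATRA. CHAF1B went from 294 ± 21.8 untreated to 151 ± 55 with ATRA (log2 -1.02 ± 0.19, limma adjusted p = 0.000351) and 278 ± 23.4 with DAC+ATRA. CHAF1A went from 1135 ± 7.34 to 707 ± 134 (log2 -0.70 ± 0.13) and 1064 ± 44.3. For DAC+ATRA against ATRA the changes were 0.93 ± 0.19 and 0.61 ± 0.13 (log2), and both calls were lost without ATRA replicate 3 (0.65 and 0.45) or DAC+ATRA replicate 3, that of CHAF1A also without DAC+ATRA replicate 2. Against untreated, DAC+ATRA differed by -0.08 for CHAF1B and -0.09 for CHAF1A.

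Among fork protection genes, CLSPN, an adaptor of the replication checkpoint, had 195, 211 and 223 normalised counts untreated, 288, 293 and 321 with DAC, 124, 94.5 and 68.6 with ATRA, and 237, 200 and 247 with DAC+ATRA. ATRA libraries were below all others, and DAC+ATRA overlapped with untreated. CLSPN was 2.24-fold lower with ATRA (log2 -1.17 ± 0.18, limma adjusted p = 3.36e-05) and 2.43-fold higher with DAC+ATRA than with ATRA (log2 1.28 ± 0.18, limma adjusted p = 3.78e-05). WDHD1, which links the helicase to polymerase alpha, and TIPIN, the partner of TIMELESS, fell by 1.15 and 0.90 on the log2 scale with ATRA. The WDHD1 call was lost without ATRA replicate 3, at a log2 change of -0.85. TIMELESS was 2.21-fold higher with DAC+ATRA than with ATRA (57.6 ± 10.8 against 26.1 ± 8.26, log2 1.14 ± 0.25, limma adjusted p = 0.00301), a call lost without ATRA replicate 3 (log2 0.89) or DAC+ATRA replicate 2 or 3. The call was also lost with only the compared groups. Against untreated (46.0 ± 6.66) TIMELESS was at 0.90 ± 0.25 with DAC and -0.83 ± 0.25 with ATRA, neither called.

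Both regulators fell with ATRA. E2F1, the transcription factor, had 449, 466 and 445 normalised counts untreated, 650, 615 and 570 with DAC, 258, 185 and 120 with ATRA, and 351, 401 and 314 with DAC+ATRA, and no groups overlapped. It was 2.52-fold lower with ATRA (log2 -1.34 ± 0.19, limma adjusted p = 1.53e-05), 1.73-fold lower with DAC+ATRA than DAC (log2 -0.79, limma adjusted p = 0.00397) and 1.97-fold higher with DAC+ATRA than ATRA (log2 0.98, limma adjusted p = 0.00102). The call against DAC was lost without DAC replicate 1 or 2 or DAC+ATRA replicate 1 or 3 (log2 -0.70 at its smallest). DTL, the receptor of a ubiquitin ligase that marks CDT1 for degradation in S phase, had 98.0, 90.9 and 95.3 normalised counts untreated, 137, 95.7 and 103 with DAC, 37.6, 55.8 and 20.9 with ATRA, and 111, 93.4 and 87.8 with DAC+ATRA. Only the ATRA libraries stood apart. DTL was 2.63-fold lower with ATRA (log2 -1.40 ± 0.27, limma adjusted p = 0.000336), and its 2.69-fold difference between DAC+ATRA and ATRA was the largest such change among the members (log2 1.43 ± 0.27, limma adjusted p = 0.00069).

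The ATRA libraries did not carry the pattern equally. In 35 of the 43 tested genes the lowest ATRA library was replicate 3. Without it, 18 members were called in place of 26. The calls of MCM5, MCM7, ORC1, PCNA, POLE, PRIM1, RFC4, RFC5 and WDHD1 were lost and LIG1 was gained. Of 27 members with a mean of at least 100 normalised counts, 21 were called lower with ATRA (median -1.01), beside 1021 of all 5614 genes at such a mean, and of 16 members with a lower mean, 4 were. Of the 12 members with a single transcript row, whose sum cannot hide a shift between rows, 10 were called lower (median -1.01). Beside them, 586 of all 2852 genes with a single row were called lower. Of 31 members with several rows, 15 were called lower (median -0.76). For members with a lower mean or several rows, the only background taken was the 14.0% of all tested genes called lower. Of 19 tested members with an E2F motif in the window, 13 were called lower and 1 higher with ATRA (median -1.11), and of 18 with a window without one, 10 were lower (median -0.86). This difference was not tested. Shares among all tested genes with or without a match were not taken, and the only background is the 14.0% of all tested genes called lower.

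Other genes of the pathway were taken from lists written with earlier results of these data known. For all lists, the background with ATRA was 14.0% of tested genes called lower and 12.1% higher. For DAC+ATRA against ATRA it was 6.47% higher and 5.46% lower. Of 37 tested further replication genes, 13 were called lower and 0 higher with ATRA (median -0.40), and 6 were higher and 1 lower with DAC+ATRA than with ATRA. TICRR, which helps to fire origins, fell from a mean of 49.4 to 13.7 with ATRA (log2 -1.84 ± 0.36, limma adjusted p = 0.000397) and remained at 13.9 with DAC+ATRA. The fork repair factor MMS22L fell from 465 to 209 (log2 -1.17). Of 22 E2F and RB network genes, 9 were lower with ATRA, and 4 were higher and 1 lower with DAC+ATRA than with ATRA. E2F2 had means of 343 untreated, 606 with DAC, 124 with ATRA and 378 with DAC+ATRA, and was called in both directions. It was lower with ATRA (log2 -1.50, limma adjusted p = 9.14e-07), higher with DAC (log2 0.82 ± 0.17, limma adjusted p = 0.00262) and 1.64 ± 0.17 higher with DAC+ATRA than ATRA (limma adjusted p = 1.13e-06). The repressor E2F7 (19.2 to 5.11) and the cyclin CCNE2 (38.5 to 12.9) had the largest decreases with ATRA in this list.

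For deoxynucleotide supply, 5 of 10 genes were lower and 1 higher with ATRA. RRM2, a subunit of ribonucleotide reductase, fell from 38.0 to 16.5 (log2 -1.28 ± 0.32, limma adjusted p = 0.00357). SAMHD1, which breaks down deoxynucleotides, was the 1 that rose, from a mean of 181 to 2034 with ATRA and 2376 with DAC+ATRA (log2 3.49 ± 0.10 and 3.71 ± 0.10, limma adjusted p = 2.98e-15 and 1.62e-15). Of 20 mitosis genes, 14 were lower with ATRA (median -1.04), 11 with DAC+ATRA against untreated (median -0.79) and 12 with DAC+ATRA against DAC, and 1, CDK1, was higher with DAC+ATRA than with ATRA. The background of genes called lower was 14.0%, 14.4% and 9.74% in the first 3 of these. The 1 call of 20 against ATRA did not exceed its background of 6.47%. BUB1, of the spindle checkpoint, fell from 26.1 to 7.16 with ATRA (log2 -1.72 ± 0.38, limma adjusted p = 0.00139), and AURKA, a mitotic kinase, was at 72.6 untreated and 23.5 with DAC+ATRA (log2 -1.55 ± 0.25, limma adjusted p = 6.51e-05). The replication genes had 5 of 43 lower with DAC+ATRA beside these 11 of 20, a difference that was not tested.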

How the data were processed

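RNA of MOLM-13 cells was measured in 12 libraries, 3 per group. The authors removed ribosomal RNA, made stranded libraries, mapped reads with STAR (hg38), counted per transcript with htseq-count and applied DESeq2 size factors; versions, annotation release and strand setting are not given in the sources used here. The deposited values are a normalised signal per transcript (100502 rows), from which whole reads were recovered (100% of values whole within 0.1 reads). Columns named CTRL were taken as untreated.

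Rows were summed per symbol. Biotypes came from GENCODE release 44 (88.9% of rows matched). limma 3.58.1 (R 4.3.3; lmFit, eBayes with trend) was fitted on log2(normalised count + 1), a scale that understates changes of low genes, to all 12 libraries without covariates. The 10642 protein-coding genes that reached 10 normalised counts in 3 or more libraries were tested and called at a Benjamini-Hochberg adjusted p under 0.01, the threshold of the study's methods. Scripts were tested on simulated data. Replicate libraries differed beyond sampling noise, and unevenly, by chi-square per degree of freedom. Pairs holding untreated replicate 3, DAC replicate 3 or ATRA replicate 1 ran from 22.0 to 33.8, and all other pairs from 2.26 to 7.90. Recovered depth (4.67 to 11.9 M reads) counts reads in the deposited values and is below the sequencing depth per sample that the study gives. It limits genes with few reads.

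Members, lists and tests were chosen with earlier results of these data known. By rule, all members are named, with values per library for those with most calls and, per comparison, the 3 largest called changes each way; E2F1, FEN1, MCM6, PCNA and RFC3 follow in call number. POLD2 and RPA1 were added after their values were seen. From other lists, the 2 largest called changes per comparison could be named. Alternatives were DESeq2 1.42.0, edgeR 4.0.16, other scalings, pseudocounts, filters, thresholds, a replicate block and leaving out each library.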

Additional observations from a re-analysis of the deposited data

Results flagged for a closer look

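The DAC effect on CDT1 differed with and without ATRA. The interaction was 1.025 on the log2 scale (limma, adjusted p = 0.00814), since DAC+ATRA exceeded ATRA by 0.99 while DAC differed from untreated by -0.03. The adjusted p ran from 0.000721 to 0.0315 over 24 alternatives, and the call was kept in 10 of them.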

How the results depend on the processing

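No call of a member reversed under 15 alternatives or when leaving out a library; of 2529 alternative values for 94 member and comparison pairs, 2265 kept their direction and side of the threshold, 125 lost the call and 139 gained it, and 116 values that were not called in either fit changed sign. ATRA against untreated (26 calls) gave 18 to 31, the lowest over 2-fold and without ATRA replicate 3 (18 to 29 over the libraries left out). DAC against untreated (1) gave 3 with DESeq2 and at 0.05, 2 with edgeR under either scaling, 0 over 2-fold and 1 to 2 without a library. DAC+ATRA against untreated (5) gave 13 at 0.05, 12 with only the compared groups, 3 without the filter, 2 over 2-fold and 3 to 8 without a library. It was 3 without any 1 untreated or DAC+ATRA library or ATRA replicate 2, and 8 without DAC replicate 3. DAC+ATRA against DAC (8) gave 14 with DESeq2, 19 at 0.05, 1 over 2-fold and 3 to 14 without a library (14 without ATRA replicate 3, 5 without DAC+ATRA replicate 2, 3 without DAC replicate 2 or DAC+ATRA replicate 3). DAC+ATRA against ATRA (13) gave 21 at 0.05, 6 over 2-fold and 9 to 19 without a library. The interaction (1) gave 0 with all symbols, with the most abundant row, without the filter and with a pseudocount of 0.1, and 0 to 1 without a library; it could not be fitted on fewer groups. The cause of these shifts was not tested, beyond the stricter or looser thresholds themselves.

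The shared replicate numbers do not pair the libraries: correlations of deviations between same-numbered libraries ran from -0.448 to 0.267 and between others from -0.327 to 0.425 over 7056 genes. With the replicate block, calls were 2 for DAC, 25 for ATRA, 4 for DAC+ATRA, 11 against DAC, 14 against ATRA and 0 for the interaction.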
